A study of Mus musculus with 23 samples.

Results

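Rasgrf1 encodes a guanine nucleotide exchange factor that loads Ras proteins with GTP, and in the mouse it is imprinted, with expression from the paternal copy in neonatal brain. Its imprint is one of the few set in sperm: a germline differentially methylated region (gDMR) upstream of the gene is methylated on the paternal allele. On the unmethylated maternal allele this element can bind CTCF and act as an insulator, and a tandem repeat beside it is needed for the methylation in the male germ line. Methylation was examined here in all windows with their midpoint in chr9:89840000-90030000 (GRCm38), a stretch of 190 kb with the gDMR, the promoter and the gene body of Rasgrf1. The region held 31 of 333984 windows in the E6.5 table and 37 of 402812 in each E7.5 table, one for all alleles together and one split by allele. It was selected on the difference between the parental alleles in E7.5 extra-embryonic ectoderm (ExE) in these same data, so that this difference is described without a test.

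DNA methylation had been measured by post-bisulphite adaptor tagging (PBAT) in hybrid mouse embryos between C57BL6/Babr (B6) and CAST/EiJ (CAST), with the maternal strain written first. At E6.5 the libraries came from pools of 4 epiblasts or about 8 ExE, taken from the input of nuclease-digested chromatin, with 3 epiblast and 2 ExE libraries in each of the crosses B6/CAST and CAST/B6. The matDKO/CAST embryos (2 epiblast and 3 ExE libraries, E6.5 only) had B6/129 mothers that were floxed for Dnmt3a and Dnmt3b and carried Zp3-cre, which is active in growing oocytes, and CAST fathers. Knockout and control thus also differed in the 129 part of the maternal genome. At E7.5 each library came from 1 embryo, with 2 for each tissue of each cross, and these had been split by parental allele. Read coverage was not part of the tables, so the depth behind each percentage is unknown. Library means were taken over autosomal windows with a value in every library of the day, 167307 at E6.5. The mean was 65.9 to 79.4% in wild-type E6.5 epiblast, 53.5 to 66.2% in wild-type E6.5 ExE, 53.1 to 54.7% in matDKO/CAST epiblast and 39.6 to 41.8% in matDKO/CAST ExE. At E7.5 it was 71.7 to 75.6% in epiblast and 56.05 to 59.2% in ExE. As a check of the tissues, the window with the annotated start of Elf5, a trophoblast gene whose promoter is known to be methylated in the embryonic lineage, was at 80.4 to 92.6% in the 4 E7.5 epiblasts and 60.8 to 69.1% in the 4 ExE samples. These values did not overlap, but the window was far from unmethylated in ExE, and at E6.5 the wild-type values of the tissues overlapped.

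The window chr9:89878612-89880482, in the upstream part of the region, is called the DMR window. It lies in intergenic DNA, with its midpoint 30.4 kb upstream of the start of Rasgrf1 (ENSMUSG00000032356.12, chr9:89909908-90026977, plus strand, GENCODE annotation) and beyond the 3′ end of the long non-coding RNA gene 4930524O08Rik (chr9:89826519-89864028, plus strand). It holds 54 CpG dinucleotides in 1871 bp, whereas the window upstream of it has 50 CpGs in 3950 bp. A tandem repeat began in the last 157 bases of the DMR window and ran on to chr9:89881512, over 1187 bp with 27 CpGs. In its most regular stretch of 200 bases, 97% of bases matched the base 40 positions further on. The 300 bases of the DMR window with the most CpGs, and 300 bases of the repeat, are shown because these elements lie where the parental alleles differ most (GRCm38.p6, plus strand, CpGs in capitals).
DMR window, chr9:89879626-89879925, 30 CpGs: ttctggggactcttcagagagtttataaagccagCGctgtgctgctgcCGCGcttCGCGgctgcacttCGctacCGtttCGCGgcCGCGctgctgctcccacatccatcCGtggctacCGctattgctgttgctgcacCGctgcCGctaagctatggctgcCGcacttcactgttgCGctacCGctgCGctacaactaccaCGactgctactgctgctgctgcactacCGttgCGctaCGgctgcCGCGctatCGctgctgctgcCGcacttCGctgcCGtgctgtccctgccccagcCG
Tandem repeat, chr9:89881077-89881376, 8 CpGs: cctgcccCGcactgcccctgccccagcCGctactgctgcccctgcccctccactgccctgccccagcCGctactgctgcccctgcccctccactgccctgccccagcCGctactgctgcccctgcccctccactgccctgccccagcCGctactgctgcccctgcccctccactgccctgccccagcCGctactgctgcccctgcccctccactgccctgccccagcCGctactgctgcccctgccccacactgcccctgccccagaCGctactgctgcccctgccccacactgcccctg
The stretch from the DMR window was picked for its CpGs, so that its density beside the repeat was set by the choice. As a whole the DMR window holds 54 CpGs in 1871 bp, and the repeat 27 in 1187 bp.

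Which stretch was methylated on the paternal allele alone was asked in the E7.5 allele data. In ExE the maternal allele of the DMR window was nearly free of methylation, at 3.76 and 3.77% in the B6/CAST samples and 7.92 and 11.4% in the CAST/B6 samples. The paternal allele was at 82.9 and 83.3% in B6/CAST and 89.3 and 94.5% in CAST/B6. The alleles did not overlap, and the paternal excess was 80.8 points ± 1.84 (SD, n = 4), with each sample between 79.1 and 83.1 points. In epiblast the maternal allele was at 0.680% in B6/CAST replicate 1 and at 0 and 6.25% in the CAST/B6 samples, and had no value in B6/CAST replicate 2. The paternal allele was at 94.3 and 98.2% in B6/CAST and 100 and 84.3% in CAST/B6. The alleles did not overlap in epiblast either, and the paternal excess in the 3 samples with both values was 90.5 points ± 11.3 (SD, n = 3). Because 1 epiblast lacked the maternal value, the DMR window was not among the 18 region windows tested on complete data, of which 0 were called by limma (1 at an unadjusted p under 0.05) beside 0.0122% of all windows. It was tested in a fit that allowed 1 missing sample, which left out B6/CAST replicate 2 there. This setting was chosen after the data had been seen. The maternal minus paternal difference was -91.3 points (SE 5.71, limma adjusted p = 0.00765). The DMR window was the 1 region window called of 27 tested, beside 0.0097% of all windows.

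**Figure D1:**
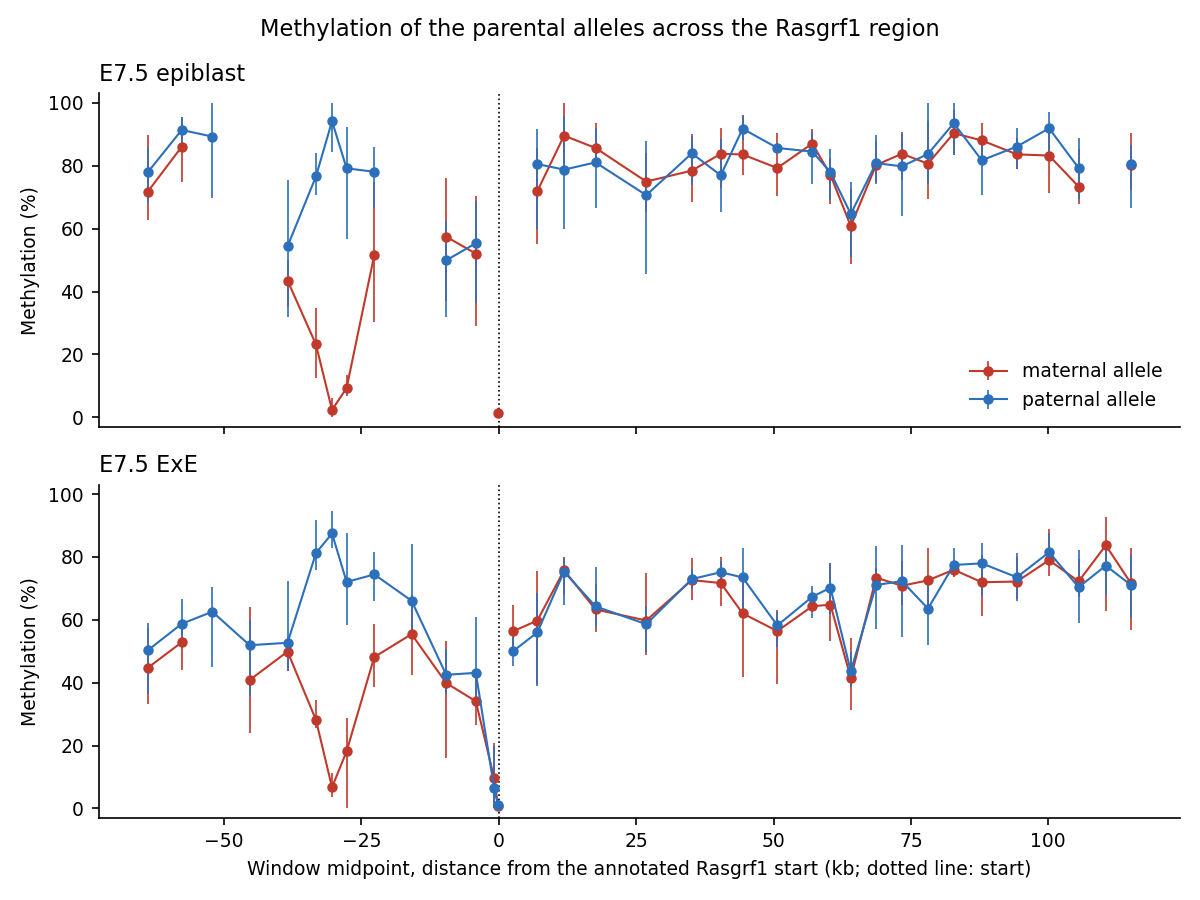
Methylation (%) of the maternal (red) and paternal (blue) allele at E7.5, in windows placed by the distance of their midpoint from the annotated Rasgrf1 start (kb), with epiblast above and ExE below. Points are means over samples, bars run from the lowest to the highest sample, and lines break where fewer than 3 samples had a value. The alleles part around the DMR window, 30.4 kb upstream of the start, and run close together through the gene body.

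The paternal methylation reached beyond the DMR window. In ExE the window upstream of it, chr9:89874650-89878599, was at 25.97, 25.6, 26.7 and 34.4% on the maternal allele and 75.98, 76.9, 91.7 and 80.4% on the paternal allele of the same 4 samples. The window downstream, chr9:89880502-89883906, which holds most of the tandem repeat, was at 0 to 28.8% on the maternal and 58.3 to 87.5% on the paternal allele. The alleles did not overlap in either flank, in ExE or in epiblast. In the next window, chr9:89884133-89890331, the ExE maternal allele was at 38.7 to 58.6% and the paternal allele at 65.9 to 81.5%. Along these 4 windows the mean paternal excess was 53.1, 80.8, 53.9 and 26.3 points in ExE, and 57.3, 90.5, 65.5 and 26.5 points in epiblast. The peak was thus at the DMR window in both tissues, and the fourth window had the smallest and most variable excess, with an SD of 14.4 points in ExE (n = 4) and 22.2 in epiblast (n = 4).

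Taken as neighbouring windows with a mean paternal excess of at least 20 points and the same sign in every sample, the run spanned 4 windows in both tissues, chr9:89874650-89890331, 15.7 kb in all, and ended 19.6 kb before the Rasgrf1 start. With a minimum of 30 points it kept 3 windows, chr9:89874650-89883906, and was 9.26 kb long. Just outside, chr9:89868368-89874538 had a paternal excess of 2.79 points ± 14.9 (SD, n = 4) in ExE and 16.5 points ± 27.6 (SD, n = 3) in epiblast. On the other side, chr9:89890410-89897635 had 10.6 points ± 10.9 (SD, n = 4) in ExE, and -14.2 points in the 1 epiblast with both alleles. The edges were less sure than the centre, since without CAST/B6 replicate 2 the epiblast run moved to chr9:89868368-89883906. In the fit with 1 missing sample allowed, the epiblast difference was -58.6 points in the upstream flank (SE 5.43, limma adjusted p = 0.0793) and -67.5 points in the downstream flank (SE 6.23, adjusted p = 0.0793), so that neither passed.

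**Figure D2:**
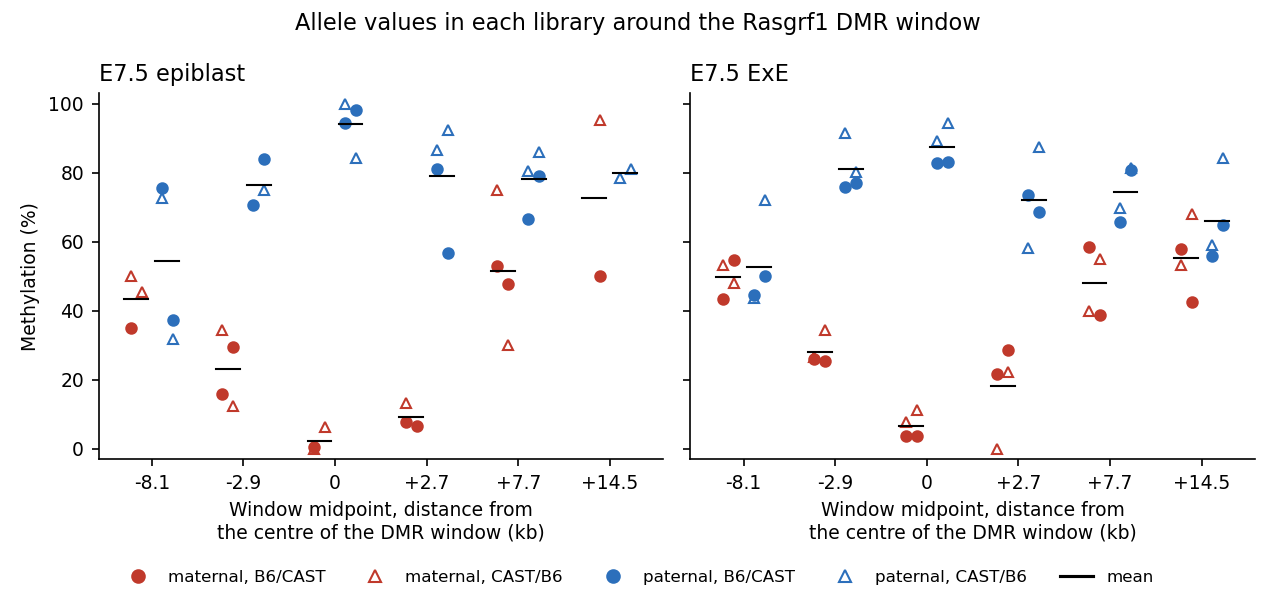
Methylation (%) of each allele in each E7.5 sample for 6 neighbouring windows, placed by the distance of their midpoint from the centre of the DMR window (kb), with epiblast on the left and ExE on the right. Filled circles are B6/CAST, open triangles CAST/B6, red is maternal, blue paternal, and black bars are means. Maternal and paternal points stand apart in the DMR window and the window on either side of it. They lie closer in the next window downstream, where the ExE alleles still did not overlap, and draw together in the outermost windows.

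Outside the run the mean parental differences were smaller in windows with enough values. All 31 ExE windows with both alleles in at least 3 samples had a mean paternal excess between -9.002 and 11.1 points, and the 23 such epiblast windows were between -10.8 and 16.5 points. Single samples ranged more widely, and the paternal excess of chr9:89897990-89902671 ran from -44.3 to 18.4 points over 3 epiblast samples. Windows with both alleles in fewer samples are not in these ranges. In ExE chr9:89854900-89860620 had a paternal excess of 13.4 points over 2 samples. In epiblast chr9:89910956-89914075, just inside the gene, had a paternal excess of 52.5 points in its 1 sample, chr9:89854900-89860620 and chr9:89860732-89868367 had 20.8 and 20.3 points in 1 sample each, and chr9:89914201-89919608 had 20.5 points over 2 samples. The gene body, averaged over the 16 of 22 windows with every allele value, had maternal methylation of 67.9% ± 2.10 (SD, n = 4) in ExE, with 68.8% ± 3.36 (SD, n = 4) for the paternal allele. In epiblast the gene body had 81.4% ± 1.78 (SD, n = 4) maternal and 81.1% ± 2.86 (SD, n = 4) paternal methylation. The window that holds the start of Rasgrf1, chr9:89909488-89910034, had at most 3.12% on any allele with a value.

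Since the maternal allele of one cross is the paternal allele of the other, parent could be separated from strain. Of the B6 minus CAST differences, 0 of 33 region windows passed limma in ExE and 0 of 18 in epiblast, with 2 and 0 at an unadjusted p under 0.05. Among all windows 0% were called in ExE and 0.000838% in epiblast. The strain term of the DMR window was 1.46 points in ExE (SE 4.73, adjusted p = 0.975). In the 3 epiblast samples with both values, which the choice of the region did not use, the paternal copy was the more methylated one, CAST in 1 and B6 in 2.

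The next comparison asked whether the gDMR shared the difference between epiblast and ExE. With both alleles together at E7.5, the DMR window was at 41.7 and 52.6% in B6/CAST and 37.4 and 39.7% in CAST/B6 epiblast. In ExE it was at 34.6 and 47.5% in B6/CAST and 50.8 and 58.5% in CAST/B6. The tissues overlapped, and epiblast minus ExE, averaged over the crosses, was -4.999 points (SE 3.92, limma adjusted p = 0.261), or -8.20 to -1.79 points with 1 sample left out. The crosses went opposite ways, with means of 47.2% in epiblast and 41.1% in ExE for B6/CAST, and 38.5% and 54.6% for CAST/B6. By limma, 0 of 37 region windows passed a test of whether the tissue difference differed between the crosses. The flanks did not pass either, with 1.72 points upstream (SE 2.85, adjusted p = 0.592) and 6.48 points downstream (SE 4.47, adjusted p = 0.206), whereas the fourth window of the run was higher in epiblast by 9.68 points (SE 3.67, adjusted p = 0.0380). The tissues overlapped in that window too. Epiblast was at 57.2 and 59.2% in B6/CAST and 75.1 and 59.7% in CAST/B6, and ExE at 50.4 to 58.8%. Over the region 29 of 37 windows were called, beside 83.6% of all windows. Of these 26 were higher in epiblast, beside 82.3%, and 3 lower, beside 1.25%. The median over all windows was 16.5 points. With each sample centred on its own mean 4 windows were called higher and 10 lower in epiblast, beside 19.2% and 20.6% of all windows. Centring takes this shared difference from every window, so that its calls are relative to the sample mean and say nothing of the level itself. The centred difference of the DMR window was -21.3 points (limma adjusted p = 0.00142). On the paternal allele alone the DMR window differed by 6.72 points (SE 4.58, adjusted p = 0.222), or 2.79 to 10.7 points with 1 sample left out, and the maternal allele could not be tested on complete data.

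Among the called windows the largest differences were over 4930524O08Rik, inside Rasgrf1 and between gDMR and gene. The window chr9:89854900-89860620 was at 82.9 to 86.1% in epiblast and 46.5 to 64.1% in ExE, a difference of 27.5 points (SE 3.81, limma adjusted p = 0.000487). Its upstream neighbours over the non-coding gene had 27.1 points at chr9:89849473-89854899 (SE 4.35) and 26.4 points at chr9:89842568-89849472 (SE 2.21). The window at the 3′ end of that gene, chr9:89860732-89868367, was not among the 5 largest and differed by 20.4 points (SE 2.45). The intronic window chr9:89955865-89965311 differed by 26.5 points (SE 3.02) and the intergenic window chr9:89890410-89897635 by 23.9 points (SE 2.64). The first 3 of these windows and the intronic window were the 4 called higher in epiblast with centring. The gene body as a whole was at 78.9% ± 2.43 (SD, n = 4) in epiblast and 65.8% ± 2.94 (SD, n = 4) in ExE. On single alleles 10 of 21 windows were called on the maternal and 8 of 25 on the paternal allele, all higher in epiblast, beside 58.6% and 59.2% of all windows. The maternal count was 6 without B6/CAST ExE replicate 1 and 5 without B6/CAST ExE replicate 2. With centring no window was called higher in epiblast on either allele, beside 3.55% of all maternal and 3.47% of all paternal windows, and 1 was called lower on the maternal allele, beside 5.11%. The intronic window was among those called without centring on both alleles, with 22.9 points on the maternal (SE 6.02) and 27.5 points on the paternal allele (SE 3.94).

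The start of Rasgrf1 went the other way. The window just before it, chr9:89908681-89909432, was at 0.784 to 4.17% in epiblast and 4.98 to 11.1% in ExE, a difference of -5.82 points (SE 2.34, limma adjusted p = 0.0469). The window with the start itself was at 0.385 to 3.25% over the 8 samples and did not pass (-0.718 points, SE 2.01, adjusted p = 0.758). The first windows inside the gene were lower in epiblast too, with -7.999 points at chr9:89910063-89910947 (SE 2.17, adjusted p = 0.00959) and -11.2 points at chr9:89910956-89914075 (SE 2.67, adjusted p = 0.00523). The latter was at 19.6 to 28.1% in epiblast and 32.05 to 39.01% in ExE.

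**Figure D3:**
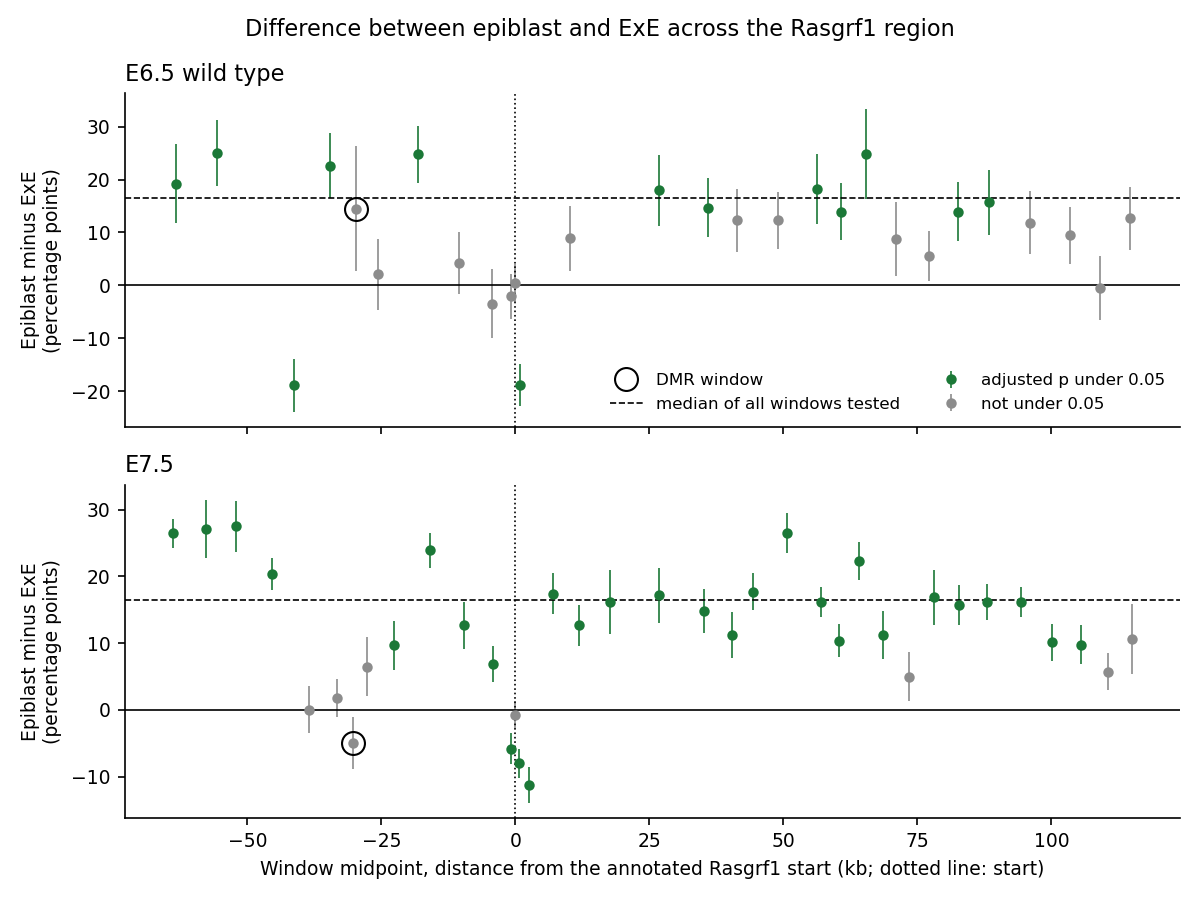
Epiblast minus ExE methylation (percentage points, limma estimates with their standard errors as bars) for each region window tested, in wild type at E6.5 above and at E7.5 below, against the distance of the window midpoint from the Rasgrf1 start (kb). Green points had an adjusted p under 0.05, grey ones did not, the ring marks the DMR window, and the dashed line is the median of all windows tested (16.6 points at E6.5, 16.5 at E7.5). At E7.5 the ringed point lies below 0, as do the windows at the gene start.

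At E6.5 the genome had been cut into other windows and there were no allele values, so levels are set beside those of E7.5 without a test. The E6.5 window that covers the gDMR, chr9:89878508-89881698, is 3191 bp long with 85 CpGs and also takes in the tandem repeat. It was at 58.6, 76.7 and 51.1% in B6/CAST epiblast and 72.1, 83.3 and 37.5% in CAST/B6 epiblast. In ExE it was at 56.4 and 42.6% in B6/CAST and 76.5 and 19.4% in CAST/B6. The spread within groups was wide and the tissues overlapped. The wild-type means were 63.2% ± 17.3 (SD, n = 6) in epiblast and 48.7% ± 23.97 (SD, n = 4) in ExE, beside 42.8% ± 6.76 (SD, n = 4) and 47.8% ± 9.95 (SD, n = 4) in the DMR window at E7.5. Epiblast minus ExE was 14.5 points (SE 11.8, limma adjusted p = 0.299), or 0.246 to 28.8 points with 1 library left out. CAST/B6 minus B6/CAST was 2.17 points in epiblast (SE 15.2, adjusted p = 0.952) and -1.53 points in ExE (SE 18.7, adjusted p = 0.971).

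Over the region 13 of 28 windows were called at E6.5, beside 56.1% of all windows. Of these 11 were higher in epiblast, beside 55.5%, and 2 lower, beside 0.623%. The count was 5 without CAST/B6 epiblast replicate 3, 8 without CAST/B6 epiblast replicate 1, 6 without the unnumbered B6/CAST epiblast library, 5 and 7 without B6/CAST ExE replicates 1 and 2, and 8 without CAST/B6 ExE replicate 1. With each library centred on its own mean 0 windows were called higher in epiblast and 4 lower, beside 4.77% and 5.73% of all windows. Among the 28 windows tested the largest difference was 25.01 points at chr9:89850817-89857859 over 4930524O08Rik (SE 6.19, limma adjusted p = 0.00549), followed by 24.8 points at chr9:89972825-89977896 in the gene body (SE 8.56, adjusted p = 0.0247) and 24.7 points at chr9:89886950-89896410 between gDMR and gene (SE 5.47, adjusted p = 0.00283). The window chr9:89858962-89864895, also over 4930524O08Rik, was not tested because 1 epiblast library had no value, and was at 74 to 80% in 5 epiblast libraries and 32.3 to 45.1% in the 4 ExE libraries. The window next to the gDMR on its upstream side, chr9:89872071-89878470, was at 46.9 to 80.8% in the 6 epiblast libraries and 36.4 to 50% in the 4 ExE libraries, a difference of 22.7 points (SE 6.13, adjusted p = 0.00791). The intergenic window chr9:89865016-89872070 was lower in epiblast, with and without centring, at 11.4 to 25.9% against 34.9 to 43.2% (-18.9 points, SE 4.98, adjusted p = 0.00697). Of the E7.5 windows that overlap it, chr9:89860732-89868367 was higher in epiblast, at 61.9 to 75.2% against 43.1 to 48.4% (20.4 points, SE 2.45, limma adjusted p = 0.000308), and chr9:89868368-89874538 was at 35.3 to 47.96% in epiblast and 35.3 to 45.6% in ExE and did not pass (0.00413 points, SE 3.53, limma adjusted p = 0.999). The window just inside the gene, chr9:89910264-89911125, was at 0 to 5.71% in epiblast and 13 to 25% in ExE, a difference of -18.8 points (SE 4.02, limma adjusted p = 0.00298), in the same direction as the first windows of the gene at E7.5.

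Reciprocal crosses were compared within each tissue. By limma, 0 of 30 region windows were called in E6.5 epiblast, 0 of 29 in E6.5 ExE, and 0 of 37 in E7.5 epiblast and in E7.5 ExE, with 4, 3, 2 and 2 at an unadjusted p under 0.05, and 0% of all windows was called in each. At E6.5 the median of CAST/B6 minus B6/CAST over all windows was 8.36 points in epiblast and 11.6 points in ExE. Averaged over the 4 windows between gDMR and gene, E6.5 epiblast was at 43.5 to 53.6% in B6/CAST and 64.3 to 68.1% in CAST/B6, and ExE at 40.6 to 47.9% and 55.7 to 55.8%, with no overlap between the crosses in either tissue. The library means over autosomal windows did not overlap either. They were 65.9 to 74.9% in B6/CAST and 78.6 to 79.4% in CAST/B6 epiblast, and 53.5 and 53.5% against 66.2 and 63.8% in ExE. In the DMR window at E7.5, CAST/B6 minus B6/CAST was -8.62 points in epiblast (SE 5.55, adjusted p = 0.861) and 13.6 points in ExE (SE 5.55, adjusted p = 0.863). With 1 sample left out these ran from -14.1 to -3.15 and from 7.18 to 19.999 points.

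The matDKO/CAST embryos, from oocytes without the de novo methyltransferases DNMT3A and DNMT3B, had values for both alleles together, so that methylation of the paternal allele could not be read on its own. The window that covers the gDMR was at 64.3 and 21.4% in matDKO/CAST epiblast, against 51.1 to 76.7% in B6/CAST, and at 8.65, 21.3 and 32.6% in matDKO/CAST ExE, against 56.4 and 42.6% in B6/CAST. In epiblast the groups overlapped, and matDKO/CAST minus B6/CAST was -19.3 points (SE 17.3, limma adjusted p = 0.396). In ExE all 3 knockout libraries lay below both B6/CAST libraries, but the difference of -28.6 points did not pass (SE 17.2, adjusted p = 0.285), and 1 CAST/B6 library, at 19.4%, lay within the knockout range. The median over all windows was -16.3 points in epiblast and -12.2 points in ExE. The epiblast difference turned to 2.14 points without matDKO/CAST replicate 3.

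Elsewhere in the region 3 of 20 windows were called in epiblast, all lower in matDKO/CAST and all in the gene body, beside 27.8% of all windows. These were chr9:89994743-90001868 at -29.5 points (SE 8.56, limma adjusted p = 0.0254), chr9:89930906-89942392 at -28.3 points (SE 9.61, adjusted p = 0.0439) and chr9:89954035-89963858 at -26.96 points (SE 7.40, adjusted p = 0.0207). Without B6/CAST replicate 3, or without the unnumbered B6/CAST library, 0 windows were called, as were 0 on the logit scale and 0 with centring, which called 0.00611% of all windows lower. In ExE 0 of 26 windows were called by limma, with 7 at an unadjusted p under 0.05, beside 0% of all windows. With the mean of both crosses as wild type, 13 of 26 region windows were called in ExE, beside 52.7% of all windows, and 6 of 20 in epiblast, beside 56.4%. Over autosomal windows with a value in every E6.5 library, the means of the CAST/B6 ExE libraries were 66.2 and 63.8%. They lay above those of B6/CAST ExE at 53.5 and 53.5%, and the part of this in the counts was not tested. The window that covers the gDMR was in neither set, at -27.9 points in ExE (SE 14.2, limma adjusted p = 0.104) and -20.4 points in epiblast (SE 15.3, adjusted p = 0.256). Averaged over 9 windows with every value, the gene body of matDKO/CAST ExE was at 50.4% ± 3.77 (SD, n = 3), against 62.5% ± 1.26 (SD, n = 2) for B6/CAST. In epiblast the knockout gene body was at 60.6% ± 2.35 (SD, n = 2), against 75.9% ± 3.18 (SD, n = 3) for B6/CAST.

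Between the tissues of matDKO/CAST embryos 4 of 18 windows were called, all higher in epiblast, beside 18.7% of all windows. The largest difference was 52.3 points at chr9:89886950-89896410 (SE 7.59, limma adjusted p = 0.00380), which was at 75 and 81.8% in epiblast and 31.5, 31.3 and 15.4% in ExE. The others were 30.8 points at chr9:89858962-89864895, 28.6 points at chr9:89872071-89878470 and 25.03 points at chr9:89968510-89972796. The window that covers the gDMR differed by 22.005 points (SE 17.3, limma adjusted p = 0.384), or 0.577 to 43.4 points with 1 library left out. The count of called windows was 1 without epiblast replicate 1 and 2 without ExE replicate 1. It was 0 on the logit scale and 1 with centring, chr9:89886950-89896410, beside 0.965% of all windows called higher with centring.

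Other gDMRs give a scale for the knockout. The window upstream of H19, also methylated in sperm, was at 33.3, 31.1 and 50% in matDKO/CAST and 30.4 and 59.9% in B6/CAST ExE, a difference of -7.002 points (limma adjusted p = 0.758). One window of the Kcnq1ot1 gDMR, methylated in oocytes, was listed at 0% in all 3 matDKO/CAST ExE libraries and was at 54.2 and 55.7% in B6/CAST ExE, a difference of -54.9 points (adjusted p = 0.0583). The other Kcnq1ot1 window had -42.1 points (adjusted p = 0.102) and those at Peg3, also methylated in oocytes, -40.2 and -47.02 points (limma adjusted p = 0.0603 and 0.0649). In epiblast the first Kcnq1ot1 window fell by 53.5 points (limma adjusted p = 0.00676) and Snrpn, also methylated in oocytes, fell by 37.8 points (adjusted p = 0.00747), while H19 had -2.23 points (adjusted p = 0.918). Of the other sperm-methylated gDMRs in ExE, a window between Dlk1 and Meg3 had -14.1 points (limma adjusted p = 0.509) and those at Gpr1-Zdbf2 had 4.47 and -14.8 points (adjusted p = 0.856 and 0.374). Whether Rasgrf1 differed from any of these gDMRs was not tested.

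**Figure D4:**
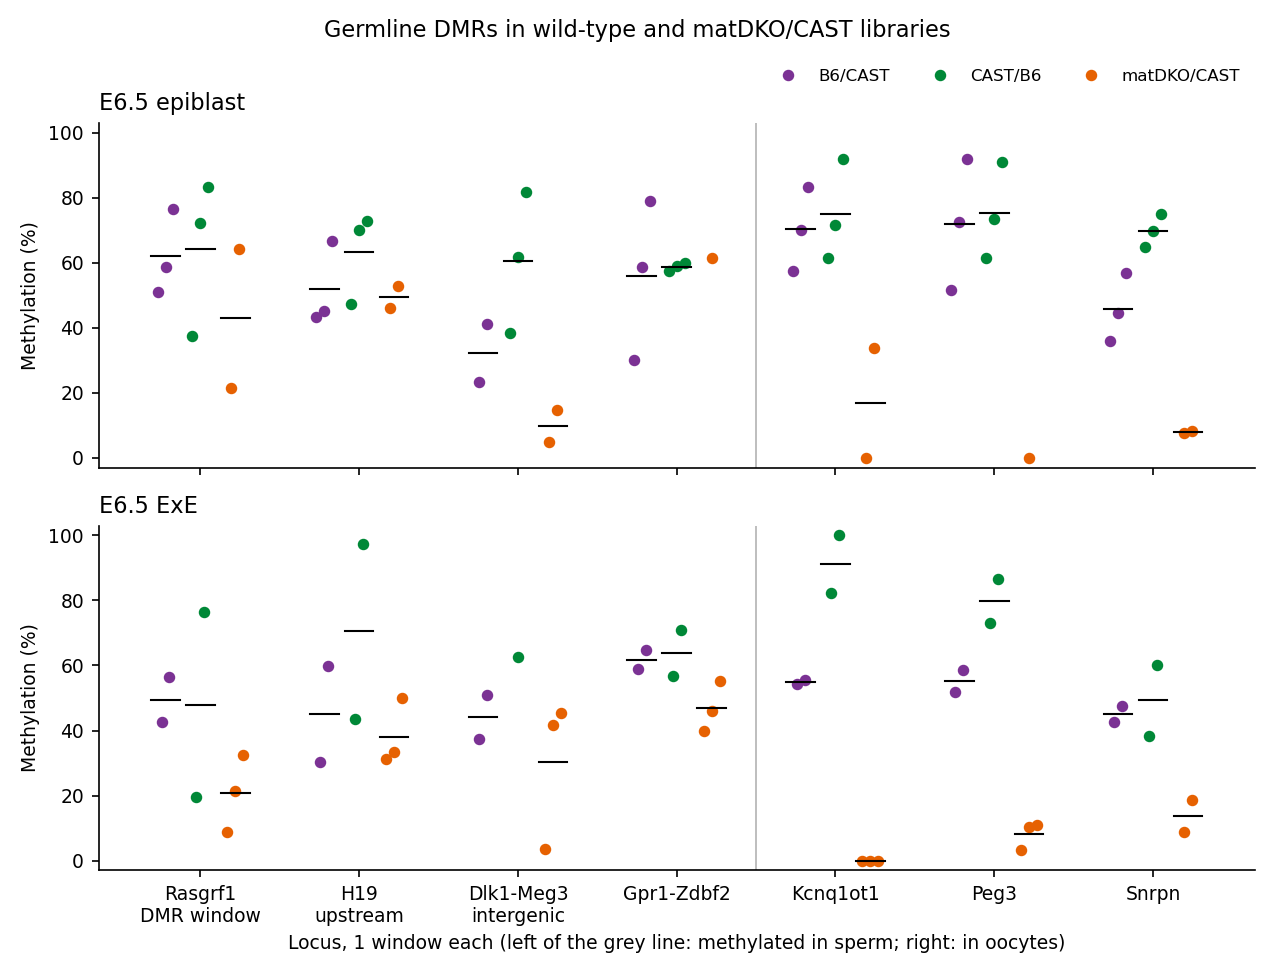
Methylation (%) of 1 E6.5 window at Rasgrf1 and at each of 6 other gDMRs in every library with a value, with epiblast above and ExE below, by group (B6/CAST, CAST/B6 and matDKO/CAST), with black bars for means of 2 or more libraries. For each other locus the window with the most values is drawn, the last along the chromosome where tied. In matDKO/CAST the Rasgrf1 window runs from 8.65 to 64.3%, and Kcnq1ot1 is at 0% in every ExE library.

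The windows most like the DMR window in their E7.5 allele values were sought among 241658 autosomal windows at least 50 kb away, by the root mean square difference over the 15 allele values that the DMR window has. The closest was chr12:109528391-109530547, in the intergenic DMR between Dlk1 and Meg3, at 7.41 points, with a mean of 7.04% on the maternal and 84.7% on the paternal allele. The window upstream of H19, chr7:142580361-142582087, followed at 8.47 points, with 5.68% and 87.03%. A window over Nespas and Gnas, chr2:174285373-174286218, was 11.99 points away and one at Gpr1-Zdbf2, chr1:63261683-63264498, 21.03 points. The fifth, over Airn at chr17:12769932-12774062, was 31.9 points away, with 45.04% maternal methylation. The alleles of the Gpr1-Zdbf2 window changed between the tissues, with epiblast minus ExE at -18.8 points on the maternal (limma adjusted p = 0.00721) and 23.5 points on the paternal allele (adjusted p = 0.0156). The paternal allele of the Rasgrf1 DMR window did not pass that test, and neither allele of the closest Dlk1-Meg3 and H19 windows did. Those windows were picked for values near the DMR window in both tissues, so that their small tissue change is no separate result. Another Dlk1-Meg3 window, chr12:109524555-109527110, was higher in epiblast on the maternal allele by 21.2 points (limma adjusted p = 0.021).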

How the data were processed

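The values analysed were percent methylation per window, as deposited by the authors for each library and, at E7.5, each parental allele. The windows are named as 100 CpGs each, while those of the region hold 41 to 61 CpG dinucleotides of the reference at E7.5 (median 49) and 50 to 85 at E6.5 (median 57). Reads had been trimmed, aligned to GRCm38 and split by strain polymorphisms, and the submitters' processing notes name Trim Galore 0.4.4 and Bismark 0.20.0. Coverage was not given, so a window with few reads weighed as much as one with many.

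All 23 samples were grouped by their labels. One B6/CAST E6.5 epiblast column carries a number that no title has and was used as a library without a number. Percentages were fitted with limma 3.58.1 (R 4.3.3) over all autosomal windows, with the E6.5 libraries in 1 fit and the E7.5 samples in another, and p-values were adjusted by Benjamini-Hochberg over all windows tested, with a threshold of 0.05. A window was tested where every library compared had a value. Parental and strain terms were fitted to the maternal minus paternal difference of each sample. The procedure was tested on simulated data. The members, comparison loci and lists were chosen with earlier results of these data known. Windows were named if they belong to the run of paternal methylation or the gene start, or are among the 5 largest called in a contrast, with further called windows given by counts; windows lower in epiblast were added after their values were seen. Genes are from GENCODE and sequence from the RefSeq copy of GRCm38.p6. Alternatives were the logit scale, trended and robust variances, centring, complete windows, left-out libraries, a replicate block, a 20-point minimum, windows by any overlap, 1 tissue per fit, both crosses as wild type, other extent limits and length-weighted means.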

Additional observations from a re-analysis of the deposited data

Results flagged for a closer look

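Of 50 sets of wild-type values that were screened for a sample far from the others, 5 held one, where chance gives about 1 in 20. All were at E7.5. In ExE, B6/CAST replicate 1 was lowest at chr9:89868368-89874538 with 35.3% and at chr9:89880502-89883906 with 31.5%. On the maternal allele of chr9:89874650-89878599 in ExE, CAST/B6 replicate 2 was highest with 34.4%. In the last window of the run, chr9:89884133-89890331, CAST/B6 replicate 1 was highest in epiblast with 75.1% and CAST/B6 replicate 2 highest in ExE with 58.8%. Tests of whether an effect differed between tissues called 0 region windows by limma, beside 0% of all windows. At an unadjusted p under 0.05 there were 1 of 17 for the knockout, 1 of 28 for the cross at E6.5, 2 of 37 for the cross at E7.5 and 0 of 18 for the parental difference. The test of the parental difference drew on the ExE difference that chose the region. It also left out the DMR window and both flanks, where 1 epiblast lacked an allele value, so that the tissues were not compared there.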

How the results depend on the processing

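The parental difference of the DMR window in ExE, which chose the region for its size and so could hardly change direction, was -81.2 to -80.3 points with samples left out in turn and -6.90 on the log2 odds scale. The run of paternal methylation had 4 windows in each tissue with any sample left out, though not the same ones in epiblast. Counts of called region windows moved, and the cause was not tested. For E6.5 wild-type tissues the count went from 13 to 4 with centring, 4 with a 20-point minimum, 0 with a replicate block and 5 to 11 with libraries left out. For matDKO/CAST tissues it went from 4 to 0 on the logit scale, 1 with centring, 0 with a replicate block and 1 to 3 with libraries left out. For matDKO/CAST against B6/CAST it went in epiblast from 3 to 0 on the logit scale, 0 with centring, 0 with a replicate block, 6 with both crosses as wild type and 0 to 4 with libraries left out (0 without B6/CAST replicate 3 or the unnumbered B6/CAST library), and in ExE from 0 to 13 with both crosses. For E7.5 tissues it went from 29 to 14 with centring, 7 with a 20-point minimum and 23 to 29 with samples left out. On the maternal allele it went from 10 to 1 with centring, 3 with a 20-point minimum and 5 to 11 with samples left out, and on the paternal allele from 8 to 0 and 5, and 7 to 8 with samples left out. Parental calls in epiblast went from 0 to 1 with 1 missing sample allowed, a setting chosen after seeing the data, and were 0 to 1 with samples left out.

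In the window that holds the DMR, the differences that changed sign had not passed the test. Epiblast minus ExE with centring became -1.13 points at E6.5 and -9.43 on the E7.5 paternal allele. The E6.5 cross difference became -6.20 with centring and -2.13 with a replicate block in epiblast, and ran over left-out libraries from -7.35 to 15.6 in epiblast and -30.04 to 26.98 in ExE. The B6 minus CAST term in ExE became -0.0713 on the log2 odds scale. matDKO/CAST minus B6/CAST in epiblast ran from -40.7 to 2.14 points, the latter without matDKO/CAST replicate 3. Same-numbered deviations of the tissues were correlated at 0.0505 at most, which cannot tell whether libraries with shared replicate numbers were paired. The replicate block moved no other count by over 1.5 times. Depth is unknown.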
